A study of Mus musculus with 6 samples.

Results

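Potassium channel genes were taken as every symbol of the deposited count table that starts with Kcn, continues with letters and ends in a number, which gave 92 of 31276 symbols. Of these, 77 encode pore-forming subunits (40 voltage-gated, 15 inward rectifier, 14 two-pore, and 8 calcium- or sodium-activated) and 15 encode accessory subunits. RNA of mouse brain (strain C57BL/6, postnatal day 14) was sequenced in 3 wild-type samples (WT) and 3 samples labelled PRMT5 olig2cre KO (KO). In the KO the arginine methyltransferase gene Prmt5 was targeted with Cre recombinase driven by Olig2, whose product is a transcription factor of the oligodendrocyte lineage and its progenitors, so cells that never expressed Olig2 keep the gene. The labels give no further allele, do not say whether WT animals carried Cre or an unrecombined target, and do not say whether each sample was 1 animal. The comparison asks how potassium channel transcripts of the brain differ when Prmt5 is targeted in that lineage while myelin forms.

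Potassium channels let potassium ions leave or enter a cell along their gradient and so set the resting potential and shape and end action potentials. Voltage-gated channels open on depolarisation, and along myelinated axons they sit beneath the sheath next to the node and at the node itself. Inward rectifiers hold the resting potential, and in astrocytes and oligodendrocytes they take up potassium that firing axons release. Two-pore channels carry background current, and calcium- or sodium-activated channels couple firing to rises in those ions. Accessory subunits change the gating or traffic of a pore and conduct nothing themselves.

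The pore-forming genes shared a coding motif that the choice by symbol did not use. The selectivity filter, the stretch of the pore that passes potassium and holds back sodium, is encoded around a glycine codon, a tyrosine or phenylalanine codon and a second glycine codon. In the longest coding sequence of each gene in GENCODE release M21, the in-frame motifs NTNGGNTANGGN and NTNGGNTTNGGN were searched on the coding strand; they differ only in the base that separates tyrosine from phenylalanine or leucine codons and cannot overlap at the same place. A match was found in 75 of the 77 pore-forming genes and in 0 of the 15 accessory genes, against 5.3% of 21817 coding genes. Of the 14 two-pore genes, 11 had 2 matches and 1 had 1 match, while each voltage-gated, inward rectifier and calcium- or sodium-activated gene had 1. Kcnk1 and Kcnk7 held neither motif in these letters. The stretches below, 5′ to 3′ on the coding strand and with the motif in capitals, are from genes on which the results turn: the voltage-gated gene with the smallest p of the comparison, a calcium-activated gene, and a member whose level followed cerebellar transcripts.
Kcnc2: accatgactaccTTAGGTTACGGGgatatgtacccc
Kcnma1: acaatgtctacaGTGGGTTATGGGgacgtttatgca
Kcng4: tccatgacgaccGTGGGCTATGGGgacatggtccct
On mm10 these lie in coding exons at chr10:112456220-112456255 (Kcnc2, exon 3, plus strand), chr14:23528401-23528436 (Kcnma1, exon 8, minus strand) and chr8:119625898-119625933 (Kcng4, exon 3, minus strand).

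The libraries held 15089140 to 16872925 counts. Among counts from 1 to 10 in the table, 76.8% were even, a share far from an equal split; whether the mates of a read pair were counted separately is not given in the sources used here. Levels are given as CPM, read counts scaled to 1 common library total after TMM correction for library composition. Prmt5 itself had 90.8, 90.4 and 91.8 CPM in WT (replicates 1 to 3, the order used throughout) and 68.2, 68.4 and 81.6 CPM in KO, a lower level in each KO library (log2 fold change -0.32 with an SE of 0.0950). After Benjamini-Hochberg (BH) adjustment its edgeR p was 0.232, and 0.0379 with the replicate number as a block. Transcripts of the cerebellum marked 3 libraries: Gabra6, a receptor subunit of cerebellar granule cells, stood at 63.8 CPM in WT replicate 1, at 80.0 CPM in KO replicate 1 and at 22.1 CPM in KO replicate 3, against 0 in each of the others. Xist, which is transcribed in female cells, stood at 509 CPM in WT replicate 2, 634 CPM in KO replicate 1 and 603 CPM in KO replicate 2 and at no more than 0.254 CPM in the other 3 libraries, so the sexes were unequal between the groups and within pair 1. All 8 markers of oligodendrocytes were lower in KO, with a summed level of 7473 to 10140 CPM in WT and 906 to 1911 CPM in KO, while the 6 neuron markers summed to 4972 to 5852 CPM in WT and 5118 to 5703 CPM in KO and 0 of them were called. Of 5 meningeal fibroblast markers, 4 were called higher in KO (sums of 75.2 to 85.9 CPM in WT and 157 to 226 CPM in KO). In RNA from a tissue of mixed cells, fewer cells of a type and less RNA per cell cannot be told apart.

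Of the 92 members, 76 passed the filter on low counts and were tested. The 16 others had means of at most 0.728 CPM, and 5 of them (Kcna10, Kcnj1, Kcnk15, Kcnk16 and Kcnmb3) had no count in any library. Levels of different genes were compared per kilobase of exon, with lengths from all GENCODE M21 exons of a gene. The counts are named for UCSC knownGene exons, so these lengths may differ from those counted. Kcna1 and Kcna2, at means of 132 and 130 CPM, had 27.6 and 10.9 CPM per kilobase. On this scale Kcnj10 had the highest mean of the members. Its mean was 51.1 CPM per kilobase over the 6 libraries, with a range of 32.2 to 68.1. Kcnj10 encodes the main inward rectifier of glia. Next came Kcnk1, a background channel of neurons and astrocytes, at 41.5 CPM per kilobase (37.9 to 46.2), and Kcnab2, the cytoplasmic beta subunit of axonal Kv1 channels, at 39.3 (35.5 to 43.1). Kcnip3, a calcium-binding subunit of Kv4 channels, stood at 37.4 CPM per kilobase (34.3 to 39.4), so the ranges of these 3 genes overlapped. All 3 ranges lay within that of Kcnj10, so Kcnj10 came first by mean and not in every library. Kcnj4, a strong inward rectifier of forebrain neurons, followed at 31.5 CPM per kilobase (25.3 to 37.1). Among voltage-gated genes Kcna1, a Kv1 subunit of axons, led at 27.6 CPM per kilobase (21.7 to 35.3), and the next, Kcnc4, stood at 20.7 (19.1 to 22.5), so the upper end of its range met the lower end of that of Kcna1. The calcium- or sodium-activated class was led by Kcnt1, a sodium-activated channel gene, at 11.4 CPM per kilobase (9.82 to 14.6), and next came Kcnn2, a small-conductance calcium-activated channel gene, at 6.08 (5.08 to 8.18), with no overlap between them.

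**Figure D1:**
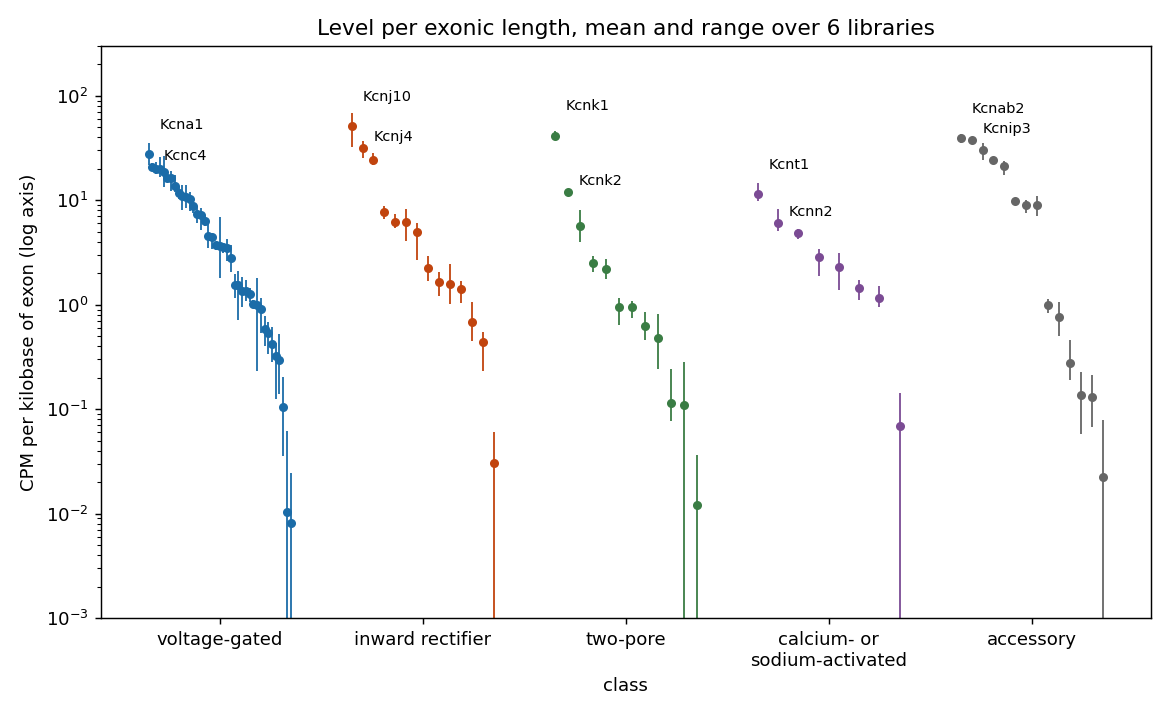
Level per exonic length of each potassium channel gene with any count, by class, as CPM per kilobase of exon on a log axis; points are means over the 6 libraries, lines run from the lowest to the highest library, and a line that meets the lower edge has a library at 0. The 2 highest genes of each class are named, with Kcnj10 highest at 51.1 and Kcnk1 at 41.5 CPM per kilobase.

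No potassium channel gene was called between KO and WT. With edgeR (quasi-likelihood) and BH adjustment over 16592 genes, 0 of the 76 tested members had an adjusted p under 0.05, where 1.2% of all tested genes were called. DESeq2 also called 0, against 1.89% of all genes it tested. The smallest adjusted p of a member was 0.137, that of Kcnc2. At an unadjusted p under 0.05 there were 9 members, which was 11.8% against 9.67% of all tested genes. Of these, 7 had lower values in KO, a direction that 5.27% of tested genes had at that p, and 2 had higher values, against 4.4%. Most differences were small: 5 of 76 members (6.58%) had a log2 fold change beyond 0.5 in either direction, against 9.05% of tested genes.

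The values of the members leaned towards lower levels in KO. Of the 76, 52 had a negative log2 fold change (68.4%), against 47.7% of tested genes, and their median was -0.11 against 0.01 for all tested genes. Leaving out single libraries moved this median from -0.15 (without KO replicate 1) to -0.04 (without KO replicate 3), and it was -0.07 without WT replicate 1. Without KO replicate 3, 44 members were negative (57.9% of the 76). With offsets adjusted for exonic length the median was -0.08, with a term for cerebellar transcripts -0.09, and with that term and the replicate block together -0.049. In that last fit the libraries numbered 3 differ in genotype and in cerebellar transcripts, so they add nothing to the genotype estimate of any gene. The median exonic length was 4587 bases in the tested members and 4391 bases in all tested genes. In each same-numbered pair of libraries the KO value was lower for 18 members (23.7%, against 17.7% of tested genes) and higher for 5 (6.58%, against 19.3%). Every KO library lay below every WT library for 6 members (7.89%, against 7.99% of tested genes) and above for 3 (against 8.02%), so 9 of 76 did not overlap in either direction (11.8%, against 16% of tested genes).

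**Figure D2:**
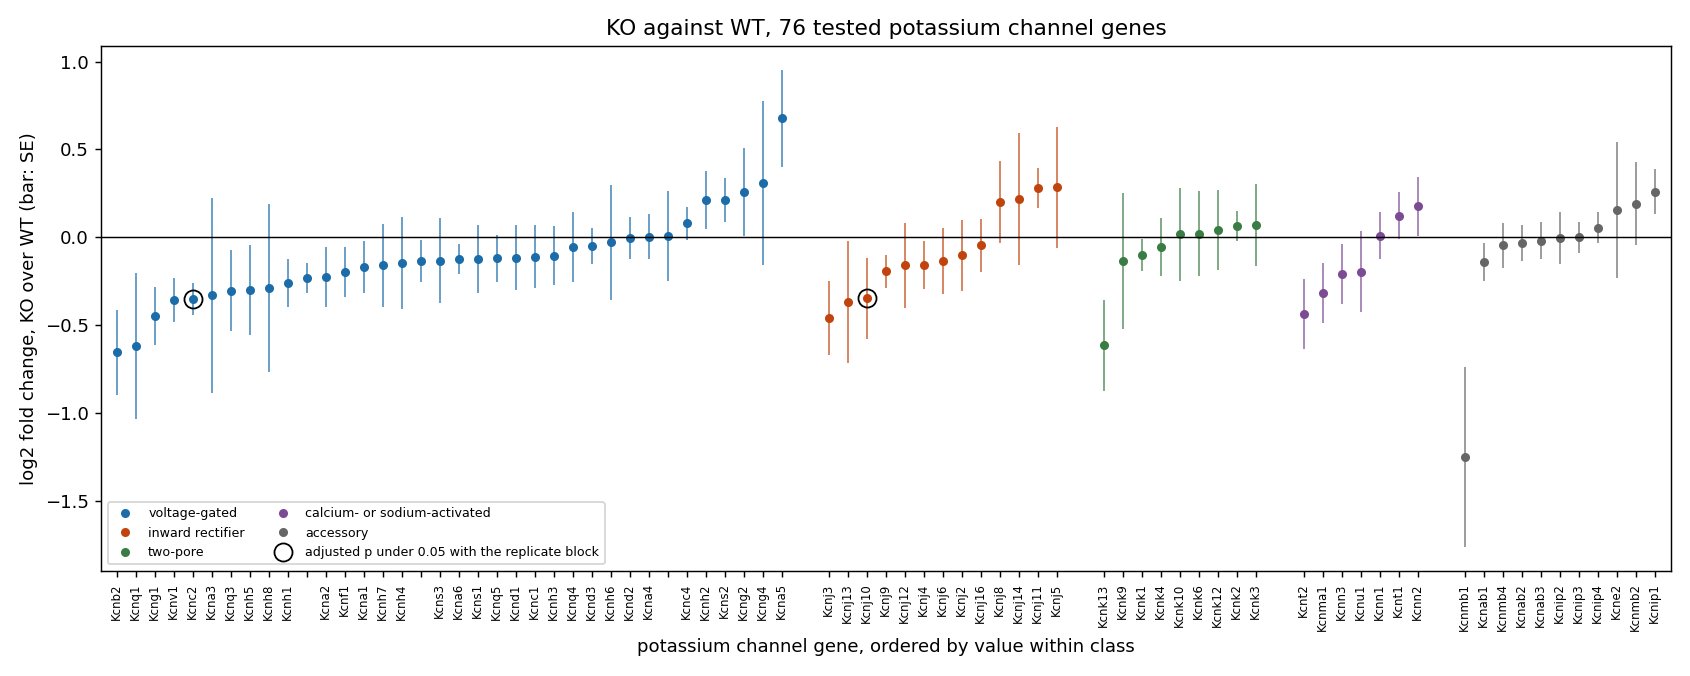
Log2 fold change, KO over WT, of the 76 tested potassium channel genes in edgeR, ordered by value within each class, 3 of them drawn without a name; bars are standard errors (SE). No gene was called, and the black circles mark Kcnc2 and Kcnj10, the 2 genes with an adjusted p under 0.05 once replicate number was added as a block.

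The labels number the samples of both groups 1 to 3, and same-numbered libraries deviated together, so replicate number was also fitted as a block. This pairing comes from the data, not the labels, and cannot be told apart from shared cerebellar and Xist transcripts. The block called 2 of the 76 members (2.63%, against 3.41% of all tested genes), Kcnj10 and Kcnc2, both lower in KO, a direction in which that fit called 2.38% of tested genes. For Kcnj10 the levels were 368, 298 and 262 CPM in WT replicates 1 to 3 and 353, 202 and 174 CPM in KO replicates 1 to 3. The groups overlapped, since both replicates numbered 1 were high, and within pairs 1 to 3 the KO value differed by -4.04%, -32.3% and -33.5%.
The log2 fold change of Kcnj10 was -0.35 (SE 0.228, adjusted p = 0.660 by edgeR), and -0.40 (SE 0.0969, adjusted p = 0.0224 in edgeR) with the block. With block and cerebellar term together it was -0.31 (adjusted p = 0.0546 in edgeR), where pair 3 adds nothing to the genotype estimate. That fit called 1 member, Kcnb2, against 3.22% of tested genes. Without KO replicate 1 the value of Kcnj10 was -0.72 (adjusted p = 0.0372 in edgeR), the 1 member called there, against 1.81% of tested genes. Without each other library in turn the value lay between -0.46 and -0.16 and was not called. Kcnj10 is expressed in astrocytes and in oligodendrocytes. Both replicates numbered 1 carried cerebellar transcripts, and so did KO replicate 3, which had the lowest Kcnj10 level of all 6 libraries. The mean Kcnj10 level was 298 CPM in libraries with these transcripts and 254 CPM in those without, with overlapping ranges. The 6 astrocyte markers summed to 3560 to 3616 CPM in WT and 2779 to 3564 CPM in KO, with 0 called and none at 0. Their log2 fold changes differed in sign: -0.30 for Slc1a2 and -0.17 for Aqp4, -0.04 for both Slc1a3 and Gja1, 0.04 for Aldh1l1 and 0.29 for Gfap, which was higher in KO in each pair. The part of these cell types and of cerebellar content in the Kcnj10 values was not tested.

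Kcnj16, which forms mixed channels with Kcnj10 in glia, stood at 27.4, 24.6 and 22.1 CPM in WT and at 28.9, 21.55 and 21.35 CPM in KO. The ranges overlapped, with the 2 replicates numbered 1 again highest in their groups. Its log2 fold change was -0.05 (SE 0.150), and its sign changed when WT replicate 1, KO replicate 2 or KO replicate 3 was left out.

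Kcnc2, a fast-activating Kv3 subunit known from fast-spiking interneurons, had the smallest p of all members. It stood at 64.9, 74.0 and 72.3 CPM in WT and at 56.0, 55.6 and 54.1 CPM in KO. All KO libraries lay below all WT libraries, and the KO libraries differed by less among themselves than the WT libraries did. The means were 70.4 ± 4.84 and 55.2 ± 1.02 CPM (SD, n = 3), and the log2 fold change was -0.35 (SE 0.0891). The BH-adjusted p was 0.137 in edgeR, 0.0720 in DESeq2 and 0.0316 in edgeR with the block, and 0.0776 with block and cerebellar term. Of the 6 neuron markers, Gad1, the GABA synthesis gene of interneurons, had a log2 fold change of 0.15 (SE 0.0955) with overlapping ranges, and Syt1 and Slc17a7 had -0.16 and -0.15. The part of interneuron content in the Kcnc2 values was not tested.

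Kcnc4, another Kv3 gene, stood at 70.1, 73.5 and 77.4 CPM in WT and 80.9, 70.1 and 82.65 CPM in KO, with overlapping ranges and a log2 fold change of 0.08 (SE 0.0949). The difference between Kcnc4 and Kcnc2 was not tested.

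Summed over the 92 members, the level was 3684, 3606 and 3568 CPM in WT and 3667, 3299.8 and 3134 CPM in KO. KO replicate 1 lay within the WT range and the other 2 KO libraries below it. The inward rectifiers, to which Kcnj10 contributes most, summed to 665, 612 and 594 CPM in WT and 652, 482 and 457 CPM in KO, and the voltage-gated genes to 1800.1, 1707 and 1709 CPM in WT and 1766, 1517 and 1485 CPM in KO. The accessory genes overlapped throughout, at 738 to 809.9 CPM in WT and 755 to 814 CPM in KO.

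Of the voltage-gated class, 36 of 40 genes were tested, 28 with negative and 8 with positive values, a median of -0.13, and 0 called. Kcnv1, a silent subunit that forms channels only together with other subunits, stood at 56.5, 77.3 and 79.8 CPM in WT and at 55.6, 55.7 and 55.8 CPM in KO. All KO values lay just below the lowest WT value, that of WT replicate 1, and far below the other 2. Its log2 fold change was -0.35 (SE 0.125, adjusted p = 0.354 by edgeR). Kcng1, another silent subunit, had 19.2, 26.8 and 25.6 CPM in WT and 20.7, 15.7 and 16.1 CPM in KO, which overlapped because KO replicate 1 exceeded WT replicate 1 (log2 fold change -0.45, SE 0.164).
Kcnb2 encodes a Kv2 subunit, of the delayed rectifiers of neuronal cell bodies, and was chosen after its values were seen. It stood at 9.31, 8.79 and 5.48 CPM in WT and at 6.08, 4.54 and 4.32 CPM in KO, a log2 fold change of -0.65 (SE 0.242, adjusted p = 0.391 by edgeR). The KO value was lower in each pair, with overlapping ranges. Kcnb2 was called only with block and cerebellar term together (-0.78, adjusted p = 0.0437 by edgeR). In that fit pair 3 differs in genotype and in cerebellar transcripts, so it adds nothing to the genotype estimate of any gene. Fewer residual degrees of freedom remain there than the 2 of the block alone. A pair of voltage-gated genes, also chosen after their values were seen, was higher in every KO library. Kcna5, a Kv1 subunit of glia and smooth muscle, stood at 2.06, 3.65 and 4.39 CPM in WT and 4.99, 5.17 and 6.04 CPM in KO (log2 fold change 0.68, SE 0.275, adjusted p = 0.445 by edgeR). Kcns2, a silent subunit, stood at 17.5, 17.5 and 20.5 CPM in WT and 21.9, 20.9 and 21.5 CPM in KO (log2 fold change 0.21, SE 0.123).

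Channels of the myelinated axon showed no called difference, in the libraries in which all 8 oligodendrocyte markers were lower in KO. Kcna1 and Kcna2 encode the Kv1 subunits that lie beneath the myelin sheath beside the node. Kcna1 stood at 169, 127 and 124 CPM in WT and 146, 123 and 104 CPM in KO, with a log2 fold change of -0.17 (SE 0.147). Kcna2 stood at 167, 127 and 125 CPM in WT and 154, 108 and 96.6 CPM in KO, with a log2 fold change of -0.23 (SE 0.169). For both genes the ranges overlapped, the KO value was lower in each pair, and the replicates numbered 1 were the highest of their groups. Kcnab2, which binds these subunits, was at 198, 226 and 241 CPM in WT and 209, 209 and 233 CPM in KO (log2 fold change -0.03, SE 0.101). Its sign turned with scaling by total count and without WT replicate 3. Kcnq3 encodes a subunit of the M-current channel of the node and the axon initial segment. It stood at 16.0, 14.1 and 14.6 CPM in WT and at 16.9, 11.3 and 7.94 CPM in KO, lowest in KO replicate 3 (log2 fold change -0.30, SE 0.230). Of the 8 Kcnh genes, the ether-a-go-go family, 7 had negative values and 0 were called. The 3 Kv4 genes, which carry the A-type current of dendrites, lay between -0.12 and -0.0028. The BH-adjusted p of Kcna1, Kcna2, Kcnab2 and Kcnq3 in edgeR ran from 0.709 to 0.943, and from 0.134 to 0.910 with the block. With SE of 0.147 and 0.169, the data do not show that the levels of Kcna1 and Kcna2 were equal between groups. Single libraries moved these values: without WT replicate 1 they were -0.010 for Kcna1 and -0.078 for Kcna2, and without KO replicate 1 they were -0.30 and -0.45. Without KO replicate 3 they were -0.054 for Kcna1, -0.094 for Kcna2 and -0.076 for Kcnq3, which was -0.63 without KO replicate 1.

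**Figure D3:**
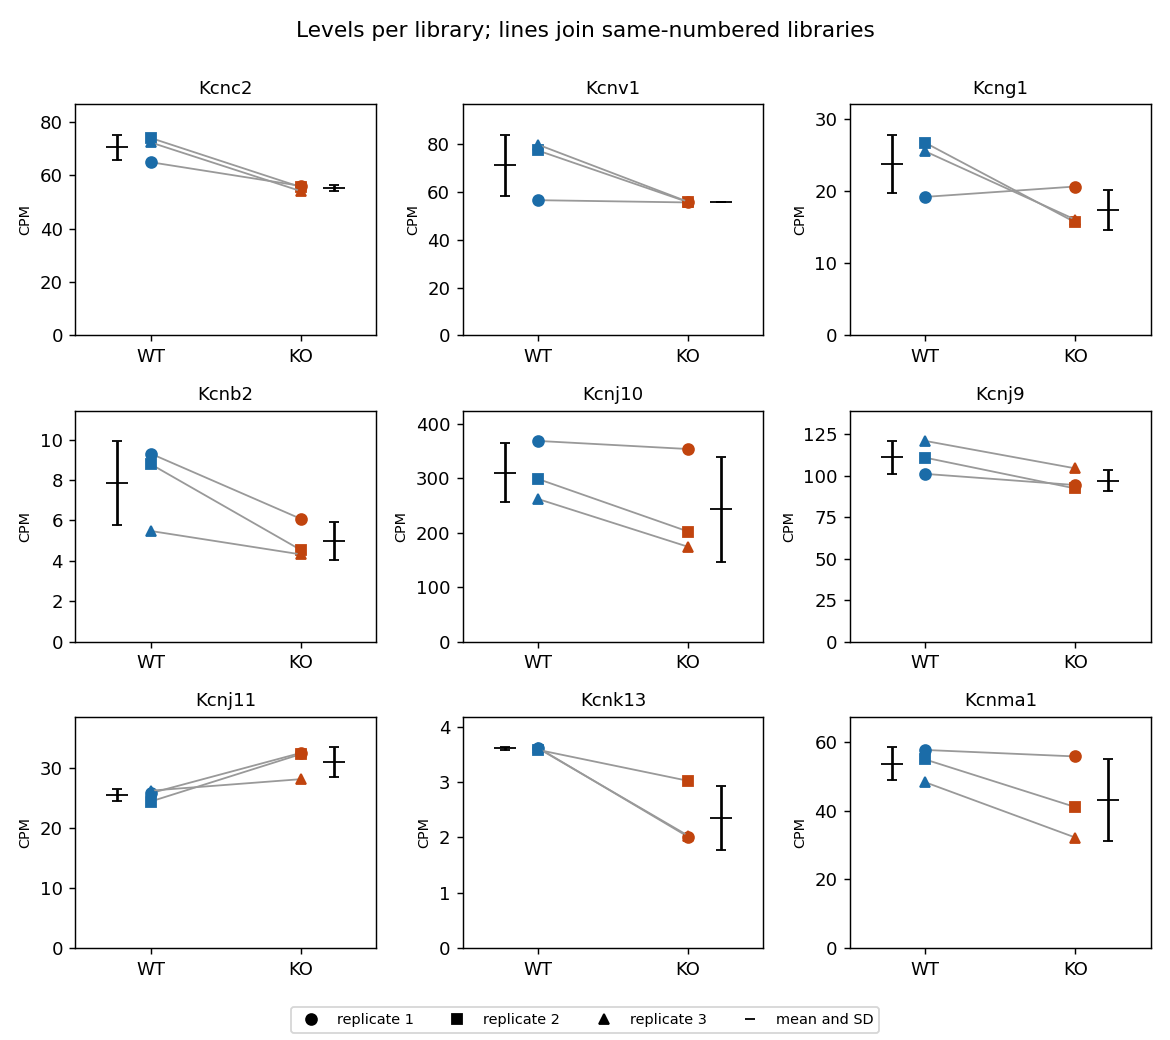
CPM of 9 potassium channel genes in each library; symbols mark the replicate number, grey lines join same-numbered WT and KO libraries, and black bars give the mean and SD of each group. Kcnc2 and Kcnv1 lay lower in every KO library than in any WT library, as did Kcnk13, Kcnj11 lay higher, and for Kcnj10 the lines of replicates 2 and 3 fell while replicate 1 barely moved.

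Of the 15 inward rectifier genes, 13 were tested, 9 with negative and 4 with positive values and a median of -0.13. Kcnj3 and Kcnj9 encode subunits of the channels that neurotransmitter receptors open through G proteins. Kcnj3 stood at 29.0, 31.6 and 29.6 CPM in WT and at 28.6, 23.0 and 13.98 CPM in KO. All KO values lay below all WT values, by little in replicate 1 and by most in replicate 3 (log2 fold change -0.46, SE 0.210, adjusted p = 0.521 by edgeR), and the value was -0.22 without KO replicate 3 and -0.70 without KO replicate 1. Kcnj9 stood at 101, 111 and 121 CPM in WT and 94.4, 92.4 and 104.5 CPM in KO, lower in each pair but with overlapping ranges (log2 fold change -0.19, SE 0.0959). Kcnj11, the pore of the channel that closes when ATP is plentiful, was the member of this class with higher values in every KO library, at 25.9, 24.5 and 26.3 CPM in WT against 32.6, 32.4 and 28.2 CPM in KO (log2 fold change 0.28, SE 0.114, adjusted p = 0.442 by edgeR). Abcc8, which encodes its sulfonylurea receptor partner, had a log2 fold change of -0.0043 (SE 0.126). For Kcnj4 the log2 fold change was -0.16 (SE 0.137), with lower KO values in each pair. Kcnj13, at 1.28 to 3.13 CPM over the 6 libraries, shares 49.1% of its exonic bases with exons of Gigyf2 on the opposite strand, so without a stated strand setting its reads cannot be told apart from those of that gene. Smaller overlaps with opposite-strand exons touch further members, among them Kcnj3 (31.1% of exonic bases), Kcnk2 (12.2%), Kcnk1 (8.01%) and Kcnma1 (5.99%). Others are Kcnk3 (5.76%), Kcnj9 (4.01%), Kcnn2 (3.80% and 4.3%, with different genes), Kcnab1 (2.34%) and Kcnt2 (1.48%). The same limit holds for their reads in the shared bases. Kcnab2 shares 2.24% of its exonic bases with a gene on the same strand, where a strand setting would not tell reads apart.

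Of the 14 two-pore genes, 9 were tested, 4 with negative and 5 with positive values and a median of 0.02. Kcnk13, a halothane-inhibited background channel known from microglia, stood at 3.62, 3.58 and 3.61 CPM in WT and at 2.01, 3.02 and 2.03 CPM in KO. The KO values were all below WT, with KO replicate 2 the closest (log2 fold change -0.61, SE 0.259, adjusted p = 0.467 by edgeR). The 4 microglia markers summed to 177 to 233 CPM in WT and 198 to 230.4 CPM in KO, with 0 called and none at 0. The part of microglia in the Kcnk13 values was not tested. Kcnk1 stood at 103, 92.25 and 92.1 CPM in WT and 95.3, 84.7 and 88.2 CPM in KO (log2 fold change -0.10, SE 0.0904), and Kcnk2, a stretch- and lipid-sensitive channel gene, at 58.7, 55.2 and 60.2 CPM in WT and 62.0, 59.9 and 60.1 CPM in KO (log2 fold change 0.06, SE 0.0851). These 2 abundant genes varied little over all 6 libraries.

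In the calcium- or sodium-activated class 7 of 8 genes were tested, 4 with negative and 3 with positive values and a median of -0.19. Kcnma1, the large-conductance calcium-activated channel, stood at 57.65, 54.9 and 48.25 CPM in WT and 55.8, 41.0 and 32.15 CPM in KO, lower in each pair with overlapping ranges (log2 fold change -0.32, SE 0.170, adjusted p = 0.584 by edgeR and 0.0845 with the block). It was -0.15 without KO replicate 3 and -0.55 without KO replicate 1. Kcnt2, a sodium-activated channel gene, was at 15.2, 21.5 and 17.6 CPM in WT and at 15.45, 15.1 and 9.59 CPM in KO (log2 fold change -0.44, SE 0.198), and its value was -0.25 without KO replicate 3. Kcnt1, its paralogue, was at 104, 110.0 and 97.9 CPM in WT and at 107, 139 and 93.3 CPM in KO, where KO replicate 2 stood above all others (log2 fold change 0.12, SE 0.132). Kcnn2 was also highest in KO replicate 2, at 61.1 CPM, with 37.9 to 49.5 CPM in the other 5 libraries, and its sign, as that of Kcnt1, turned without that library. Kcnn3, a small-conductance channel gene, had a log2 fold change of -0.21 (SE 0.171).

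Of the 15 accessory genes, 11 were tested, 7 with negative and 4 with positive values and a median of -0.0044. Kcnmb1, the beta subunit of the large-conductance channel in smooth muscle, had the most negative value of all members (log2 fold change -1.25, SE 0.510, adjusted p = 0.449 by edgeR). It rested on few reads, at 0.75, 0.95 and 0.72 CPM in WT and 0.24, 0.25 and 0.51 CPM in KO. All KO values were below WT. The 4 markers of pericytes and smooth muscle summed to 74.7 to 79.0 CPM in WT and 70.2 to 85.4 CPM in KO. None was called, and their log2 fold changes differed in sign: -0.39 for Rgs5, -0.07 for Notch3, 0.11 for Acta2 and 0.31 for Pdgfrb. The part of these cells in the Kcnmb1 values was not tested. Kcnip1, a Kv4 subunit of interneurons, was higher in KO in each pair, at 60.5, 48.3 and 43.98 CPM in WT and 68.5, 57.9 and 56.5 CPM in KO (log2 fold change 0.26, SE 0.129). Kcnab1 stood at 84.0, 83.3 and 78.6 CPM in WT and 71.7, 86.1 and 65.2 CPM in KO, with overlapping ranges (log2 fold change -0.14, SE 0.109). Kcnip3 had a mean of 132.6 CPM in each group, with an SD of 5.01 in WT and 9.63 in KO (n = 3 each).

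The levels were also set against the cerebellar transcripts. The 3 libraries with cerebellar transcripts all lay above the other 3 for 6 tested members (7.89%, against 6.44% of tested genes) and all below for 7 (9.21%, against 5.97%), shares near those of all genes. These libraries were grouped by Gabra6 above 5 CPM and are not groups of the study, so no test is given, and the genes named here were chosen for this pattern after their values were seen. Kcng4, a silent subunit, stood at 21.2, 26.5 and 12.8 CPM in the libraries with these transcripts (WT 1, KO 1 and KO 3) and at 8.52, 7.46 and 6.80 CPM in those without (WT 2, WT 3 and KO 2), a mean 2.66 times higher. Kcnk3, an acid-sensitive background channel of cerebellar granule cells and other neurons, was 1.47 times higher, and Kcnh2, an ether-a-go-go channel gene, 1.40 times. In Kcng4 and Kcnk3, KO replicate 3 held the lowest value of the 3, as it did for Gabra6, while in Kcnh2 it held the highest, at 42.9 CPM. In the other direction, Kcnh4 stood at 8.06, 8.51 and 8.51 CPM with cerebellar transcripts and at 13.99, 13.1 and 14.7 CPM without. Kcnh3 and Kcnip2, both known from forebrain neurons, were at 0.767 and 0.783 times the level of the other libraries.

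**Figure D4:**
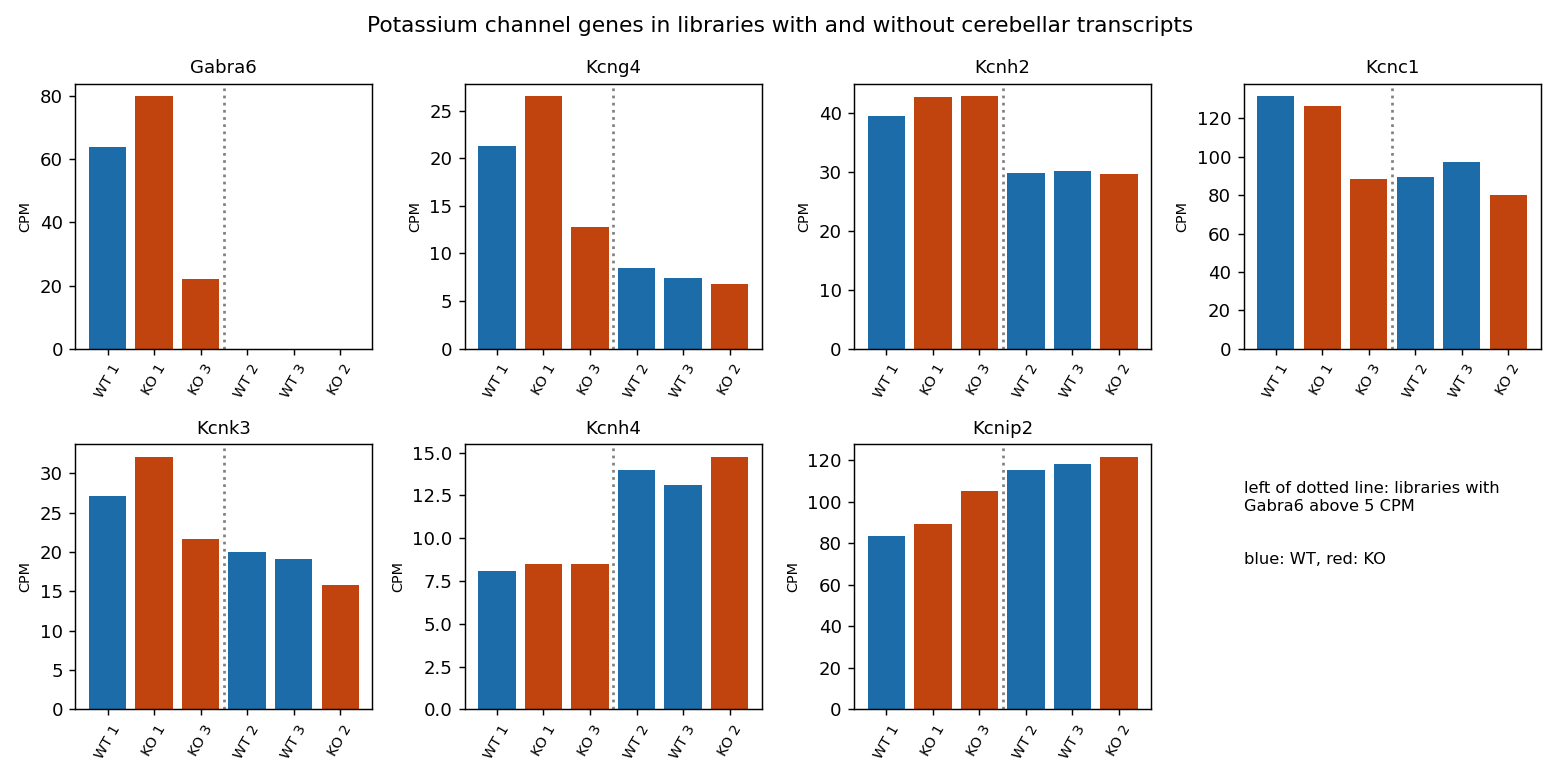
CPM of Gabra6 and 6 potassium channel genes in each library (blue WT, red KO), with the 3 libraries that hold cerebellar transcripts left of the dotted line. Kcng4, Kcnh2 and Kcnk3 were higher left of the line and Kcnh4 and Kcnip2 lower, while Kcnc1 in KO replicate 3 fell among the libraries on the right.

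Since each group holds both kinds of library, the comparison was repeated within each kind. Among the libraries without cerebellar transcripts (KO replicate 2 against WT replicates 2 and 3) 8 of 76 members were called, against 6.13% of tested genes. Among the other 3 libraries (WT replicate 1 against KO replicates 1 and 3) 0 were called, against 0.814% of tested genes, with 3 at an unadjusted p under 0.05. The group of 1 sample is assumed to vary like the other in both, so these counts describe single libraries and not the genotype. The log2 fold change of Kcnj10 was -0.47 without and -0.49 with these transcripts, and that of Kcnt1 0.42 and -0.06. With them, Kcnj10 stood at 368 CPM in WT replicate 1, 353 CPM in KO replicate 1 and 174 CPM in KO replicate 3. Its value of -0.49 thus rested mostly on KO replicate 3.

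Genes that work with potassium channels without bearing a Kcn symbol were looked up in a list of 33, all found, of which 31 were tested. edgeR called 0, against 1.2% of all tested genes. At an unadjusted p under 0.05 there were 5 of the 31, a larger share than the 9.67% of tested genes. Of these, 4 were lower and 1 higher in KO, against 5.27% and 4.4% of tested genes. DESeq2 called 2 of the 31, against 1.89%, and the block fit 3, against 3.41%. Both shares lay above those of all genes, and the genes called were lower in KO. The list was chosen with earlier results of these data known, so no excess among partner genes can be drawn from these shares. The list median was -0.09, against 0.01 for all tested genes. Slc12a2, the sodium-potassium-chloride cotransporter that takes up potassium in glia and immature neurons, stood at 88.1, 67.9 and 65.6 CPM in WT and at 49.6, 48.9 and 33.6 CPM in KO. Its libraries did not overlap between groups, and its log2 fold change was -0.75 (SE 0.160), with a BH-adjusted p of 0.0568 in edgeR, 0.000702 in DESeq2 and 5.7e-05 in edgeR with the block. The gene is also expressed in oligodendrocyte precursors, whose 4 markers summed to 415 to 439 CPM in WT and 149 to 151 CPM in KO, none at 0. Most of the WT sum came from Gpr17, with means of 285 CPM in WT and 60.3 CPM in KO (log2 fold change -2.24). The other markers differed by less, at -0.80 for Pdgfra, -0.51 for Cspg4 and -0.26 for C1ql1. Of the 4, Gpr17 and Pdgfra were called lower. The part of precursors in the Slc12a2 value was not tested. Lgi3, a secreted partner of the receptors that hold Kv1 channels at the axon, stood at 118, 101 and 111 CPM in WT and at 88.2, 80.5 and 85.8 CPM in KO. All KO values were below WT (log2 fold change -0.38, SE 0.0913, adjusted p = 0.111 by edgeR, 0.0311 in DESeq2 and 0.00977 in edgeR with the block). Dlg1, a scaffold protein gene, had lower values in every KO library as well (log2 fold change -0.33, SE 0.0877, adjusted p = 0.160 by edgeR and 0.0336 with the block). Of the organisers of Kv1 clusters beneath myelin, Cntnap2 had a log2 fold change of -0.11 (SE 0.0969) and Cntn2 of 0.23 (SE 0.277).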

How the data were processed

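RNA extracted with Trizol from mouse brain was sequenced as 150 bp paired-end reads from TruSeq mRNA libraries, per the labels' protocols. The submitters' processing notes name FastQC 0.11.2, Trimmomatic 0.32, STAR 2.3.0e, featureCounts 1.5.0, DESeq2 and mm10. The authors deposited raw counts, whole numbers for each gene, beside a normalized signal, which equals the count divided by 1 factor per library that matched DESeq2's size factor. The strand setting and the treatment of multiply mapped reads are not given in the sources used here.

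Counts were tested in R 4.3.3 with edgeR 4.0.16 (filterByExpr, TMM, glmQLFit and glmQLFTest, 4 residual degrees of freedom) over 16592 genes, with Benjamini-Hochberg adjustment and calls at 0.05. The method was tested on simulated data. Other fits used DESeq2 1.42.0 and limma 3.58.1 (on log2 of the deposited signal plus 1). The alternatives comprised 2 scalings, 2 filters, the replicate block, a cerebellar term (1 where Gabra6 exceeded 5 CPM), both together, offsets adjusted for exonic length by loess (span 0.5), and leaving out each library. After the data were seen, 4 were added: a sex term (1 where Xist exceeded 5 CPM), libraries with or without cerebellar transcripts alone, and halved counts. The block left 2 residual degrees of freedom, and block with cerebellar term left fewer. Deviations from group means correlated at 0.351, 0.334 and 0.177 between same-numbered libraries, each above the limit of 0.1. Between differently numbered libraries the correlations ran from -0.381 to 0.1. The numbers were therefore taken as pairs, and this pairing comes from the data, not the labels. Replicate 1 of both groups held cerebellar transcripts, while replicate 2 of both groups lacked them and held Xist. Such shared content and a pairing cannot be told apart. The correlations are also not independent of each other, since deviations within a group cancel out in sum. Between libraries of a group the variance was 6.75 to 27.41 times that of independently counted reads (chi-square per degree of freedom), so none was treated as a duplicate. Mates counted separately would raise this ratio. The p-values measure the spread between samples, which may be technical in part. Exonic lengths and coordinates are from GENCODE M21 on mm10, in which all 92 members were found.

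The members and lists were chosen with earlier results of these data known. The genes named are, per class, the 3 with the smallest p and the 2 with the highest level per exonic length, then 8 members known from myelinated axons or glia, and any called with the block or by DESeq2. Some genes and sequences that this rule or the lists name are not reported here.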

Additional observations from a re-analysis of the deposited data

How the results depend on the processing

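No potassium channel gene (0) was called in edgeR, nor under the other scalings, the other filters, DESeq2, limma, the cerebellar term, length-adjusted offsets, the sex term, halved counts and the libraries with cerebellar transcripts. The replicate block called 2, block with cerebellar term 1, libraries without cerebellar transcripts 8, and leaving out 1 library 0 to 1. Members at an unadjusted p under 0.05 numbered 9 in edgeR, 18 with the block, 3 in libraries with and 20 in libraries without cerebellar transcripts, and 2 to 18 with 1 library left out (2 without WT replicate 2, 18 without KO replicate 1). Over all genes 199 were called, 315 by DESeq2, 566 with the block, 535 with block and cerebellar term, 129 with the sex term, 1017 in libraries without cerebellar transcripts, and 100 to 305 with 1 library left out (100 without WT replicate 3, 305 without KO replicate 1). Of partner genes 0 were called, against 1 each with no filter, the cerebellar term, length-adjusted offsets and libraries with cerebellar transcripts, 2 each by DESeq2 and by block with cerebellar term, 3 with the block, 6 in libraries without cerebellar transcripts, and 0 to 1 with 1 library left out. The cause of these shifts was not tested.

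Signs of the log2 fold change turned in 20 combinations of gene and setting. In libraries with cerebellar transcripts these were Kcnj4 (0.12), Kcnt1 (-0.057) and Kcnab2 (0.15), and in libraries without them Kcnc4 (-0.11), Kcnab1 (0.091) and Kcnip3 (0.062). Scaling by total count turned Kcnab2 (0.0059) and Kcnip3 (0.032), the filter at a mean of 1 CPM Kcnip3 (0.000705), and halved counts Kcnip3 (0.0012). The cerebellar term turned Kcnip3 (0.026), as did block with cerebellar term (0.042). The replicate block alone turned none of the named genes. With 1 library left out, Kcnt1 ran from -0.052 to 0.24, Kcnn2 ran from -0.033 to 0.32, Kcnab2 ran from -0.11 to 0.028, Kcnip3 ran from -0.042 to 0.057 and Kcnj16 ran from -0.20 to 0.036. The cause was not tested. Few reads limited Kcnmb1, and n = 3 a group limits all tests.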
